A study of Mus musculus with 4 samples.

Results

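The genes described here encode structural proteins of the myelin sheath and of the oligodendrocytes that make it. Of the 9 genes Mbp, Mobp, Mag, Mog, Cnp, Cldn11, Bcas1, Ermn and Mal, 7 had at least 1 entry in the table of peaks of m6A (N6-methyladenosine, an RNA modification), and all of their peaks were taken by gene name. They had 20 peaks out of 33977 in the table, and the table held 10415 genes. Mag and Cldn11 had no peak in the table used here.

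The study compared the cerebral cortex of mice after a sham procedure (2 libraries) with the cortex after repetitive mild traumatic brain injury, rmTBI (2 libraries). Per the labels, RNA of all 4 libraries was recovered with the same antibody against m6A and sequenced, a method called methylated RNA immunoprecipitation sequencing. The sources used here do not give strain, age, sex, injury protocol, time after injury or any pooling of animals. The libraries are numbered 0 and 1 within each group, without a statement of what the numbers mean or whether they come from separate mice, so p-values reflect the spread between libraries alone, and that spread may be technical. Totals over the peaks were 13753600 to 14437317 counts in the libraries numbered 0 and 26356562 to 26888072 in those numbered 1.

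Myelin is the stack of oligodendrocyte membrane that wraps axons and speeds conduction. Compaction of the membrane depends on basic proteins on its inner face and on proteolipids within it, while adhesion molecules on the innermost and outermost layers hold it to the axon or face the outside. Myelin RNAs are made in large amounts by mature oligodendrocytes, and Mbp RNA is carried into the processes and translated at the sheath. An antibody against m6A enriches fragments around methylated adenosines, which are frequent near stop codons and in 3' UTRs. Because all libraries carry the antibody per the labels, counts at a peak cannot tell how far a transcript is methylated from how much of it there is, and in a tissue sample fewer oligodendrocytes cannot be told apart from less RNA per oligodendrocyte.

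Counts at the myelin peaks lay lower after rmTBI. At 19 of 20 peaks the fitted level was lower in rmTBI, with a median log2 fold of -0.78, which is 58.3% of the sham level. At 17 of the 20 peaks both rmTBI libraries lay below both sham libraries, and these 17 were every peak of Mobp, Mog, Cnp, Bcas1, Ermn and Mal. Of all peaks tested, 12.3% had that order and 47.4% had a log2 fold below 0, and the median log2 fold over all peaks was 0.02. No myelin peak passed the threshold of an adjusted p under 0.05 (quasi-likelihood test of edgeR, Benjamini-Hochberg adjusted over 33415 peaks), and 0.0868% of all peaks passed it. The smallest adjusted p among the 20 was 0.908 by edgeR. Without adjustment 16 of the 20 had a p under 0.05 and a lower level in rmTBI in the same edgeR fit, against 2.11% of all peaks. That count dropped to 5 or 8 when sham library 0 or 1 was left out, and to 9 or 4 when rmTBI library 0 or 1 was. DESeq2 also called 0 of the 20, and 0.416% of all peaks. With the label number added to the edgeR model as a block, 19 of the 20 were called lower, against 5.22% of all peaks. The sources used here do not say what that number stands for, and if it marks a kind of library that fit holds no spread between samples of 1 kind. With 2 libraries against 2, an exact permutation test of one value cannot give a two-sided p under 0.333.

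The 20 peaks are not 20 independent measurements. The peaks were found separately in sham and in rmTBI and stacked, with 10 in each set, and overlapping entries share reads. Joined where they overlap by at least 1 base, they formed 12 sites, of which 3 lay in Bcas1, 3 in Mbp, 2 in Mal and 1 each in the other 4 genes. With 1 peak a site, 11 of 12 lay lower and the median log2 fold was -0.71. By the class in the deposited table, 11 of the 20 lay in coding sequence and 9 in 3' UTRs. None lay in a 5' UTR. The median log2 fold was -0.80 over the coding class and -0.70 over the 3' UTR class, which includes 2 Mbp entries far before the gene's end. Over all tested peaks these medians were 0.02 and 0.01.

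**Figure D1:**
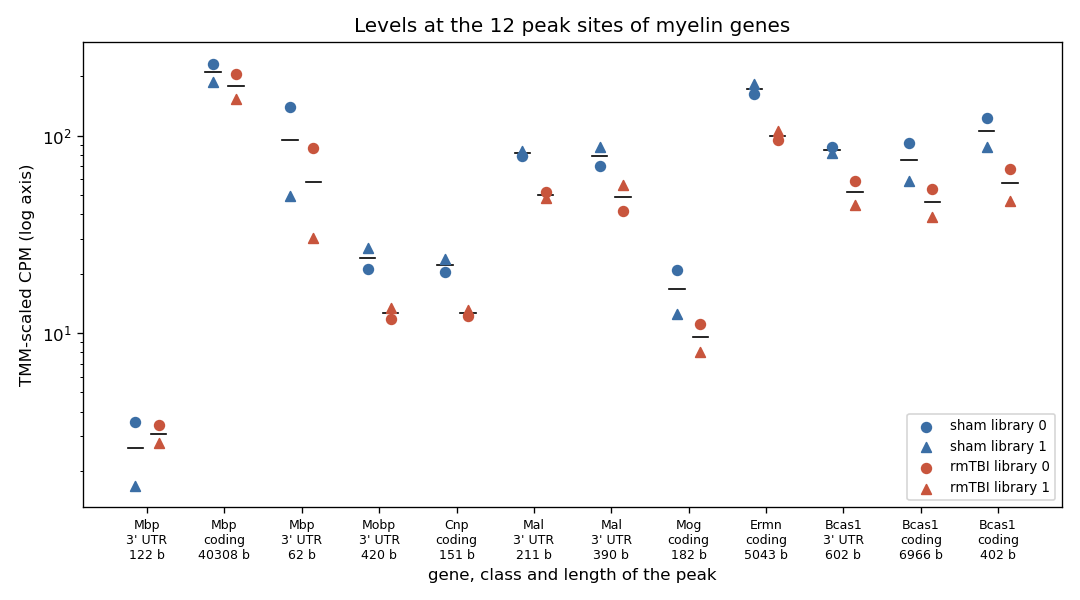
Levels in CPM (counts scaled to library size, log axis) at the 12 sites, 1 peak a site, with sham in blue and rmTBI in red. Circles are the libraries numbered 0, triangles those numbered 1, and black bars the mean of a group. Outside Mbp both red points of a site lie below both blue points.

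Levels are given at the leading peak of each gene, the one with the largest mean level over the 4 libraries, a choice that does not use the difference between groups. Levels are CPM, counts scaled to each library's size after TMM correction of that size. Positions come from the deposited table and are taken to be GRCm38. Errors are the SD of 2 libraries, and the SE belongs to the log2 fold of the edgeR fit.

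Mobp encodes myelin-associated oligodendrocytic basic protein, a small basic protein of compact myelin. Its leading peak, a 3' UTR peak of 420 bases on the plus strand (chr9:120174836-120175255), held 21.1 and 26.8 CPM in sham libraries 0 and 1 and 11.8 and 13.5 CPM in rmTBI libraries 0 and 1. Both rmTBI values lay well under the lower sham value. The mean was 24.0 ± 4.04 CPM after sham and 12.6 ± 1.21 CPM after rmTBI (SD, n = 2 libraries each), a log2 fold of -0.93 (SE 0.26, adjusted p = 0.911 by edgeR). A second entry of 300 bases lies within it and had the lowest fold of the 20, -0.98 (SE 0.28). Mobp stood at 50.9% and 52.6% of its sham level at these entries, the lowest shares among the 20 peaks, although the intervals of 1 SE overlap those of the leading peaks of Mog, Cnp, Bcas1, Ermn and Mal.

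Of the members with a promoter in the RefSeq table (GRCm38.p6), sequences are shown for the pair in which motifs of oligodendrocyte transcription factors were found. Sox10 and Myrf are known activators of myelin genes. The motifs searched, on both strands of the 250 bases before the start site, were ACAAAG, the core bound by Sox proteins, and CTGGCAC, a core bound by Myrf. The promoters of Ermn, Mal, Mobp, Cnp and Mog were in the table, and those of Ermn, Mal and Mog held no match to either motif. The runs below read 5′ to 3′ on the strand of the gene, for Mobp at chr9:120149492-120149741 and for Cnp at chr11:100574689-100574938, with matches on either strand in capitals.
Mobp: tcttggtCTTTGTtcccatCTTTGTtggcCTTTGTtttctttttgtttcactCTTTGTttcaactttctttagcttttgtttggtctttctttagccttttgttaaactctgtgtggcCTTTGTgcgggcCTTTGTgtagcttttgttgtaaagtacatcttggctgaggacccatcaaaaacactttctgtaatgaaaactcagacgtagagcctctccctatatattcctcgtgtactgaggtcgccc
Cnp: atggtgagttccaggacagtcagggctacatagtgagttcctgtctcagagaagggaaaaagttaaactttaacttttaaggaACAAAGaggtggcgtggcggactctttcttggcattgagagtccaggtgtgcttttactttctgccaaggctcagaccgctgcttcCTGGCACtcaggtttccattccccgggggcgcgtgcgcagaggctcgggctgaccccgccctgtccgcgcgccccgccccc
The Mobp promoter held 6 matches to ACAAAG, all on the opposite strand and so printed as CTTTGT, and that of Cnp held 1 on the strand of the gene. At least 1 match stood in 16.5% of the 32851 promoters of the same length, and of these promoters 1, that of Mobp, held as many as 6. The 6 Mobp matches lie in a stretch rich in T that holds other, similar short runs, so their count also describes that stretch. CTGGCAC matched once, in Cnp, and stood in 4.19% of all promoters. The motifs do not overlap each other in these promoters. A match describes the letters and is not evidence of binding, and a link between matches and levels was not tested.

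Cnp encodes a cyclic nucleotide phosphodiesterase of the non-compact cytoplasmic channels of myelin. Its single peak, found in the sham set, is a coding peak of 151 bases (chr11:100576637-100576787). It held 20.3 and 23.7 CPM in sham and 12.2 and 13.0 CPM in rmTBI. The groups did not overlap, with means of 22.0 ± 2.37 CPM and 12.6 ± 0.578 CPM (SD, n = 2 libraries each; log2 -0.80, SE 0.25).

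Mbp encodes myelin basic protein, which zips the cytoplasmic faces of the membrane together, and it had the highest level and the most uneven folds. Its leading peak is a coding entry that spans 40308 bases and so crosses introns (chr18:82514304-82554611). This entry ends 31026 bases before the end of the RefSeq span of Mbp, so its level is not that of the whole gene. It held 231 and 188 CPM in sham and 204 and 153 CPM in rmTBI. The groups overlapped, because rmTBI library 0 lay above sham library 1, and the log2 fold was -0.23 (SE 0.25), or 85.3% of sham. An entry of 62 bases (chr18:82554910-82554971) is classed as 3' UTR, although it ends 30666 bases before the end of the RefSeq span of Mbp. It held 139 and 49.6 CPM in sham and 86.5 and 30.1 CPM in rmTBI, a log2 fold of -0.70 (SE 0.58). Its spread came with the library number, since both libraries numbered 0 lay above both numbered 1. A further entry of 122 bases (chr18:82513585-82513706), classed as 3' UTR too, lies upstream of the coding entry and ends 71931 bases before the end of that span. This entry was the 1 peak of the 20 with a higher fitted level in rmTBI. It was also the one with the fewest counts, 45 to 77 per library, or 3.56 and 1.68 CPM in sham and 3.41 and 2.77 CPM in rmTBI (log2 0.26, SE 0.44). Any pair of these Mbp folds differs by less than the sum of their SEs, so no order among them is drawn.

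Mog encodes myelin oligodendrocyte glycoprotein, an immunoglobulin-like protein on the outer face of the sheath. Its leading coding peak of 182 bases (chr17:37020436-37020617) held 21.0 and 12.5 CPM in sham and 11.1 and 7.99 CPM in rmTBI. The lower sham library lay close to the higher rmTBI library, and the log2 fold was -0.81 (SE 0.34). The overlapping entry of 121 bases from the sham set held 9.13 and 7.32 CPM in sham and 4.93 and 4.53 CPM in rmTBI (log2 -0.79, SE 0.27).

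Ermn encodes ermin, a cytoskeletal protein of late myelination that binds actin. Its coding peak of 5043 bases (chr2:58047465-58052507), found in sham with a shorter entry of 4202 bases inside it from rmTBI, held 163 and 181 CPM in sham and 95.1 and 105 CPM in rmTBI. The gap between the groups was wider than the SD of 12.9 CPM in sham and 6.96 CPM in rmTBI. The rmTBI level was 58.1% of sham, a log2 fold of -0.78 with the smallest SE of the 20 (SE 0.23, adjusted p = 0.930 by edgeR).

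Mal encodes a proteolipid that sorts membrane to myelin, and its peaks lay at 2 sites of the 3' UTR. The leading peak of 211 bases (chr2:127633255-127633465) held 79.2 and 83.7 CPM in sham and 51.6 and 48.1 CPM in rmTBI, a log2 fold of -0.71 (SE 0.23). The other site (chr2:127634658-127635047) held 70.3 and 87.6 CPM in sham and 41.2 and 56.4 CPM in rmTBI, with a log2 fold of -0.69 (SE 0.27). The 2 sites of the same 3' UTR thus had folds closer to each other than their errors. The first was found in the sham set alone, although its rmTBI libraries still held 680 and 1338 counts.

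Bcas1 marks oligodendrocytes that have begun to myelinate, and with 7 peaks it had the most entries. A 3' UTR peak of 602 bases (chr2:170347350-170347951) held 87.1 and 82.0 CPM in sham and 58.9 and 44.7 CPM in rmTBI (log2 -0.71, SE 0.25). A coding entry of 6966 bases, found in rmTBI, held 91.5 and 59.0 CPM in sham and 53.7 and 38.5 CPM in rmTBI (log2 -0.71, SE 0.31). In these and in the remaining site both rmTBI values were the lowest.

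The leading Bcas1 peak was a coding entry of 402 bases (chr2:170406302-170406703) with 123 and 87.5 CPM in sham and 67.7 and 46.7 CPM in rmTBI (log2 -0.88, SE 0.30). It is listed on the plus strand, while the 3' UTR peaks of the same annotated transcript are listed on the minus strand. A minus-strand entry of 242 bases lies inside it and held 119 and 84.8 CPM in sham and 65.7 and 45.4 CPM in rmTBI (log2 -0.88, SE 0.30). The plus-strand entry had 1.03 times the counts of the minus-strand entry in each of the 4 libraries. The sources used here do not say how the counting used strand, so both entries are read as 1 site.

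**Figure D2:**
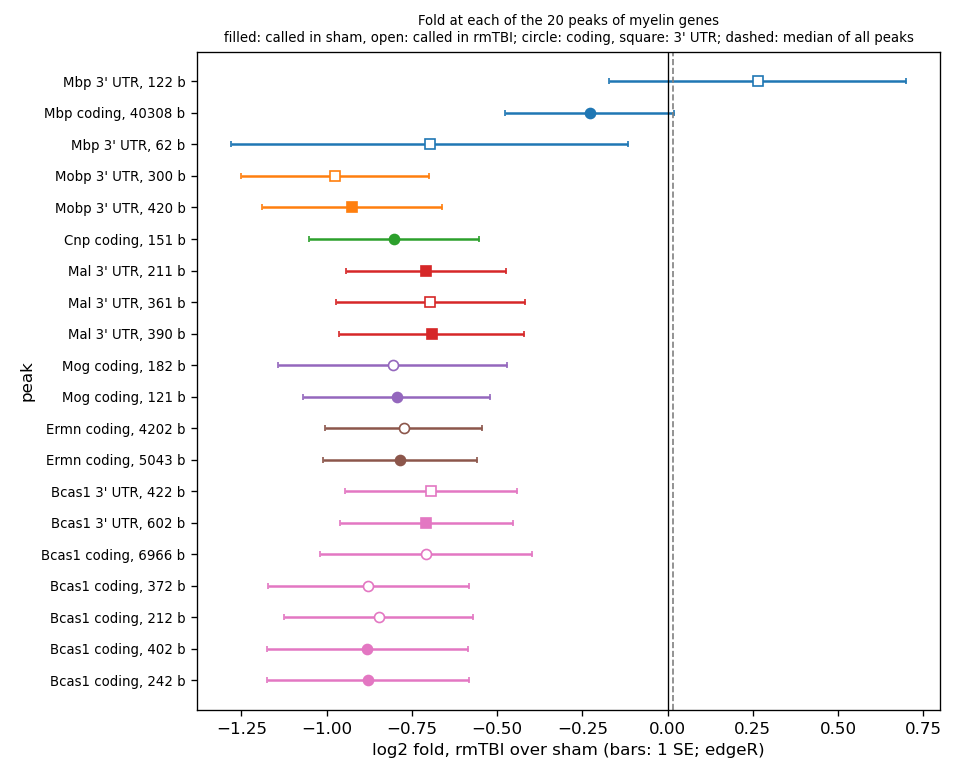
The log2 fold of rmTBI over sham at each of the 20 peaks, with bars of 1 SE from edgeR and the median of all peaks, 0.02, as a dashed line. The 17 peaks outside Mbp lie between -0.98 and -0.69, and the 3 Mbp peaks between -0.70 and 0.26.

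Outside Mbp the 17 folds ran from -0.98 to -0.69, and their SEs from 0.23 to 0.34, so that no order is drawn among Mobp, Mog, Cnp, Bcas1, Ermn and Mal. A combined criterion, both rmTBI libraries below both sham libraries and a log2 fold at or under -0.5, was met by the 17 peaks and by 5.34% of all peaks. With a minimum of 100 counts in each of the libraries it was met by 16 of 18 myelin peaks and by 2.23% of 16263 peaks. Within the libraries numbered 0 the median log2 fold over the 20 peaks was -0.77, and within those numbered 1 it was -0.79. The Mbp entry of 122 bases turned from -0.06 within number 0 to 0.71 within number 1, and it was alone among the 20 in changing sign.

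Levels between genes were compared per length, for the 16 entries under 1000 bases, since the 4 longer ones include introns. The 62-base Mbp entry was the densest, with 152 CPM per 100 bases in sham and 94.1 in rmTBI. The leading Mal peak followed among the leading peaks with 38.6 and 23.6 CPM per 100 bases, then Bcas1 with 26.2 and 14.2, Cnp with 14.6 and 8.35, Mog with 9.19 and 5.26, and Mobp with 5.70 and 3.00. The order of these 5 leading peaks was the same in sham and in rmTBI. In sham the gap between Mog and Mobp was smaller than the sum of their SDs (3.30 and 0.961 CPM per 100 bases), and the other neighbours in either group differed by more than theirs. The order of Mal and Bcas1 depends on the entry used and its length. The minus-strand Bcas1 entry of 242 bases at the leading site held 42.1 CPM per 100 bases in sham and 22.9 in rmTBI. The other Mal site, at 390 bases, held 20.2 and 12.5.

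The libraries numbered 1 and 0 differed from each other at these peaks, in a way that varied with the site. The log2 ratio of library 1 to library 0 after scaling was above 0 in both groups at 7 of the 20 peaks, those of Mobp, Cnp and Ermn and 2 of Mal, and below 0 in both groups at 12, those of Bcas1, Mog and Mbp (8 above and 10 below with library-size scaling, which raises the ratios by 0.09 to 0.11). Over all tested peaks 39.4% were above 0 in both groups and 35.9% below. The 62-base Mbp entry had log2 ratios of -1.49 in sham and -1.52 in rmTBI, and 0.814% of all peaks had a lower ratio in sham. The Mal site of 390 bases had ratios of 0.32 and 0.45, and the longest Ermn entry 0.15 and 0.14.

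These ratios changed little between sham and rmTBI. The difference, rmTBI minus sham, ran from -0.34 at the 422-base Bcas1 entry to 0.77 at the 122-base Mbp entry, with a median size of 0.13, against 0.23 over all peaks. With 1 library of each number in a group this difference has no replicate check. The log2 fold in the authors' deposited table followed this difference (r = 0.99, Pearson, over 33415 peaks that share reads and are no replicates) and not the log2 fold of rmTBI over sham (r = -0.20). The deposited contrast thus sets number 1 against number 0 within each group, as would be done for immunoprecipitated RNA against input RNA, while the labels give the antibody for both numbers. Which reading holds was not tested. If number 0 were input, each mean and SD over 2 libraries given here would mix both kinds, and the values within number 0 would be transcript abundance. For the myelin peaks the authors' deposited table gave log2 values from -0.30 at Bcas1 to 0.83 at Mbp, with an adjusted p of 0.998 at each. None of the 20 stood in the deposited lists of 277 higher and 146 lower peaks. For Ermn, for example, the authors' deposited table gave a log2 of 0.03 at the peak of 5043 bases, where the log2 fold of rmTBI over sham was -0.78.

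**Figure D3:**
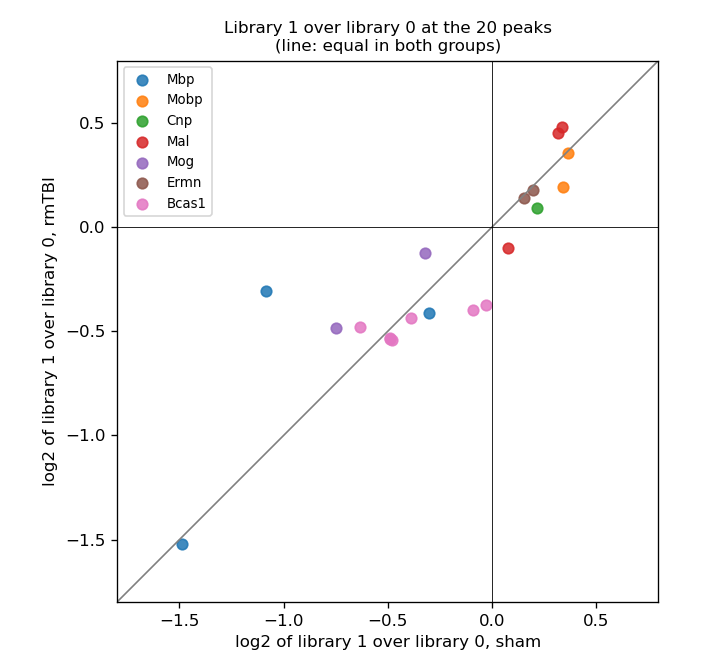
The log2 ratio of library 1 to library 0 in sham (horizontal) and in rmTBI (vertical) at the 20 peaks, coloured by gene, with a line where both are equal. Most points lie near the line, and the 122-base Mbp entry, at -1.08 in sham and -0.31 in rmTBI, lies farthest from it.

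Other genes of myelin and the oligodendrocyte lineage were taken from lists and counted at their leading peaks, beside 10209 genes of which 48.9% lay lower and whose median log2 fold was 0.01. Of 32 symbols listed for other myelin and mature oligodendrocyte genes 16 had a peak. The list held Septin4 and Sept4, symbols of the same gene, both without a peak. Of the 16, 15 lay lower, 13 with both rmTBI libraries below both sham libraries, with a median log2 fold of -0.58. None was called by edgeR, which called 0.118% of all genes lower at their leading peak. The lowest was Gjb1, which encodes the gap junction protein connexin 32, at -1.37 (SE 0.36), and the highest was Tppp, a tubulin-binding protein, at 0.22 (SE 0.32).

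Genes of cholesterol, fatty acid and myelin glycolipid synthesis lay lower for 14 of 17 tested (median -0.27), and the highest was Elovl1, a fatty acid elongase gene, at 0.21 (SE 0.56). Ugt8a, whose enzyme makes the galactolipids of myelin, stood at -0.83 (SE 0.29). Transcription factors and lineage genes lay lower for 12 of 16 (median -0.29), from Prox1, a homeobox factor also present in neurons, at -1.79 to Carm1, an arginine methyltransferase gene, at 0.48 (SE 0.62). Sox10 stood at -0.44 (SE 0.35), Olig2 at -0.21 (SE 0.46) and Myrf at -1.26 (SE 0.599). Myrf lay near the floor, with at most 1.57 CPM in sham and with 0.379 and 0.827 CPM in rmTBI. The progenitor markers lay near the median of all genes, with 5 of 8 lower and a median of -0.04, from Lhfpl3 at -0.46 to Gpr17 at 0.27.

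Genes of the node and paranode, where axon and myelin meet, lay lower for 14 of 21 with a median of -0.09, from Scn1a, a sodium channel gene, at -0.49 to Tnr, the tenascin-R gene, at 0.27. Receptors for myelin on axons and myelin-associated inhibitors lay lower for 6 of 11 (median -0.08), from Ngfr at -0.77 (SE 0.85) to Rtn4r at 0.33 (SE 0.40). Ngfr lay near the floor, with 1.21 and 0.622 CPM in sham and 0.152 and 0.791 CPM in rmTBI, and its groups overlapped. As for the other lists, 0 genes of the node and receptor lists were called by edgeR, a count near the share over all genes.

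**Figure D4:**
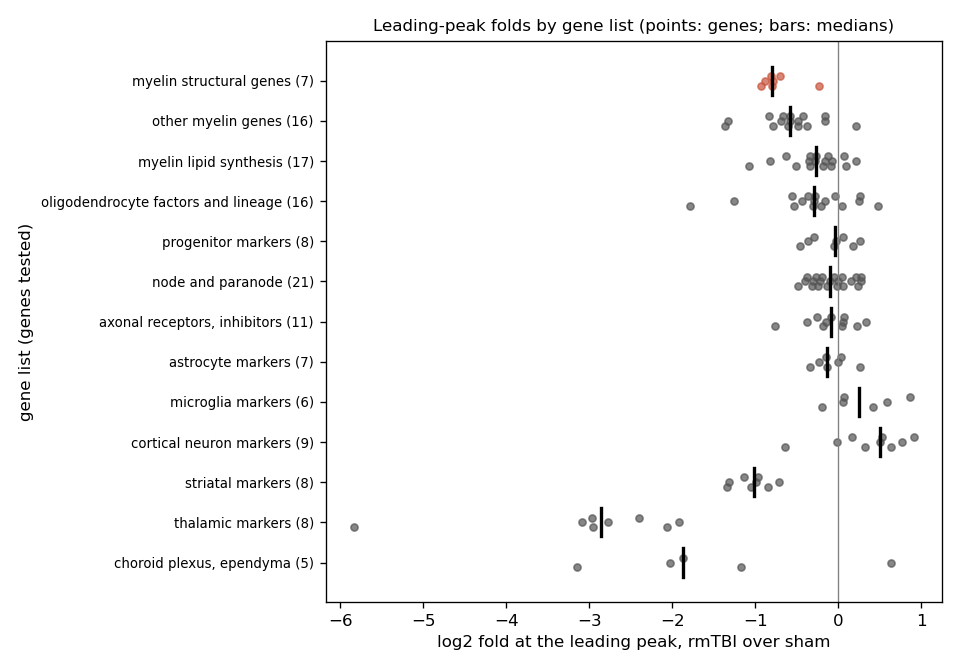
The log2 fold of rmTBI over sham at the leading peak of each gene (points), by gene list with the number of genes tested, and the list median (bars). The myelin structural genes, with a median of -0.80, stand between the node and paranode list, with a median of -0.09, and the thalamic list, with a median of -2.86.

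Markers of several other cells and regions also differed in level between the groups, and their part in the myelin result was not tested. Only thalamic markers passed the test among these lists. All 8 thalamic markers with a peak, of 9 listed, lay lower (median -2.86), from Shox2 at -5.84 to Cbln1 at -1.92, and 6 of them (Tcf7l2, Slc17a6, Lhx9, Shox2, Ntng1 and Plekhg1) were called lower by edgeR, where 12 of all 10209 genes were. Their summed level was 498 to 539 CPM in sham and 76.9 to 83.3 CPM in rmTBI, and Prkcd had no peak. All 8 striatal markers lay lower (median -1.02), with sums of 1258 to 1369 CPM in sham and 661 to 731 CPM in rmTBI. Of 8 markers of choroid plexus and ependyma 5 had a peak and 4 of these lay lower (median -1.87), with sums of 41.4 to 43.3 CPM and 12.6 to 13.0 CPM, and without a peak for Ttr, Folr1 or Kcnj13. Markers of cortical excitatory neurons, which the labelled tissue should hold, all had a peak. They lay higher for 7 of 9 (median 0.50), with sums of 800 to 929 CPM in sham and 1160 to 1272 CPM in rmTBI.

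The oligodendrocyte marker list, of which 8 genes had a peak, 6 of them described here, summed to 709 to 728 CPM in sham and 467 to 482 CPM in rmTBI. The astrocyte sums did not overlap either, at 905 to 935 CPM in sham and 943 to 965 CPM in rmTBI, with 5 of 7 genes lower and a median of -0.14. The microglia sums were 37.8 to 46.4 and 49.7 to 51.5 CPM with 5 of 6 genes higher (median 0.24). Of 6 endothelial markers 4 had a peak, and 3 of these lay higher (median 0.05). The endothelial sums overlapped, at 26.1 to 31.5 CPM in sham and 27.6 to 31.3 CPM in rmTBI. Of the Schwann cell markers, which would show myelin of peripheral nerve, 2 of 7 had a peak, Egr2 and Drp2, and the defining genes Prx and Pmp2 had none.

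The 5 other genes whose levels across the 4 libraries were most like the mean of the 7 myelin genes were Rgs4, Plch1, Chrna4, Pde7b and Insig1. Likeness was the distance between log2 levels centred on each gene's own mean, over 8380 genes with at least 20 counts in every library, and it was 0.07 for Rgs4 and 0.13 for Insig1 against a median of 0.87. The members' own distances from their mean ran from 0.14 for Mal to 0.54 for Mbp. Rgs4, a regulator of G protein signalling, held 210 and 185 CPM in sham and 130 and 117 CPM in rmTBI. With 4 libraries this likeness is a description.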

How the data were processed

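Anti-m6A libraries of mouse cortex, 2 sham and 2 rmTBI, were grouped by their titles. The authors deposited whole-number read counts per peak, not normalized, with peaks found per condition, per the file headers. They also deposited a log2 fold per peak with a p-value and adjusted p-value from a test and contrast that are not named. STAR, DESeq2 and the GRCm39 build are named without roles or versions, per the submitters' processing notes. The sources used here do not name the peak caller or the read counter, or say whether strand was used. Of the 31971 peaks whose gene has a single RefSeq span in GRCm38.p6, 98.3% overlapped that span, so positions are read as GRCm38.

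The test was that of edgeR 4.0.16 under R 4.3.3 (TMM scaling, filterByExpr, quasi-likelihood F-test on group, Benjamini-Hochberg adjustment over 33415 peaks, threshold 0.05), with 2 residual degrees of freedom among the libraries. All 20 myelin peaks passed the filter. The SE is the size of the log2 fold divided by the square root of F. Ratios between library numbers used counts with 0.5 added. The members, lists, motifs and the rule for naming genes were chosen with earlier results of these data known. That rule named all 9 members, the extremes and called genes of each list, and the 5 most alike genes. Ugt8a, Sox10, Olig2 and Myrf were named beside them after their values were seen. Some results are not reported here. Alternatives were library-size scaling, other count filters, DESeq2 1.42.0, the label number as a block, leaving out each library, and each peak set alone.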

Additional observations from a re-analysis of the deposited data

How the results depend on the processing

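All 76 values at the leading peaks kept a lower level in rmTBI under every alternative run. The count of called myelin peaks was 0 by edgeR (16 at an unadjusted p under 0.05, and 4 to 9 with a library left out). It was also 0 with library-size scaling and with a minimum of 10 counts in each library, where 2 and 0 of all peaks were called. It was 0 with no count filter (30 of all peaks called), DESeq2 (139), each library left out (0 to 0, with 82 to 122 called) and the sham and rmTBI sets alone (27 and 17). With the label number as a replicate block the same edgeR test called 19 of the 20, all lower, where it called 5.22% of all peaks lower. The numbers are shared by the groups without a stated meaning, and the deviations of same-numbered libraries correlated at 0.48 across peaks, which with 2 pairs is not taken as pairing. The median log2 fold of -0.78 ranged from -0.86 to -0.64 with a library left out, and was -0.75 over the peaks found in rmTBI alone. Leaving out a library moved Mog from -1.14 to -0.40 and Mbp from -0.46 to -0.04. The median log2 ratio of library 1 to library 0 at the leading rmTBI peaks was -0.10 and turned to 0.0088 under library-size scaling, which omits the TMM factors. Depth limits the 122-base Mbp entry, with 45 to 77 counts per library.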

Other observations

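In the whole table, 403 genes had peaks of 1 set that overlap on opposite strands, in 723 pairs, of which Bcas1 held 2. In the rmTBI set the plus-strand Bcas1 entry of 372 bases held 1.11 to 1.22 times the counts of the minus-strand entry of 212 bases.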
